A study of Mus musculus with 3 samples.

Results

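The nuclear genes of mitochondrial respiration and protein import were examined in 3 lists of RNA 5-methylcytosine (m5C) sites from mouse oocytes and embryos. The set was defined by gene name alone: every gene with a listed site whose symbol starts with Nduf, Uqcr, Cox and a digit, Atp5, Timm, Tomm, Idh, Pdh or Sdha to Sdhd. It held 75 of the 8353 genes with a site and 179 of the 40298 distinct sites. In the GENCODE M21 annotation 142 protein-coding genes fit the rule, of which 73 had a called site and 69 had none. The other 2 members were Atp5sl, which that annotation names Dmac2, and Ndufab1-ps, a processed pseudogene.

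Respiratory complexes I to IV pass electrons from NADH and succinate to oxygen. Complexes I, III and IV pump protons out of the mitochondrial matrix, and ATP synthase makes ATP from the proton gradient. Pyruvate dehydrogenase and isocitrate dehydrogenase feed the tricarboxylic acid cycle, in which complex II also takes part as succinate dehydrogenase. Nearly all these subunits are made in the cytosol from nuclear genes and enter through the TOM complex of the outer membrane and the TIM complexes of the inner membrane. Mouse oocytes and zygotes depend on pyruvate and on mitochondrial ATP, and their mitochondria and most of their mRNAs are laid down during oocyte growth.

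RNA bisulfite sequencing converts C to U, while m5C stays C, so the m5C level of a site is the percentage of its reads left unconverted. The germinal vesicle (GV) oocytes, arrested before meiotic resumption, were taken 48 h after 10 IU of the gonadotrophin PMSG. The metaphase II (MII) oocytes, matured and unfertilised, were taken 12 h after 5 IU of hCG in females primed with 10 IU of PMSG. The 1-cell embryos were taken 24 h after 5 IU of hCG in mated females primed with 5 IU of PMSG. All were wild type, came from C57BL/6J females 7 to 8 weeks old and had the zona pellucida removed with hyaluronidase at 10 IU/ml. Each stage had 1 library made from pooled cells and no replicate, so each test below compares the reads of 2 libraries and not conditions. The labels describe the conversion of oocyte and embryo RNA in different words, and stage cannot be told apart from library or batch.

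The lists held 15910 sites at the GV stage, 20694 at the MII stage and 24996 in the 1-cell embryo, with a median coverage of 121, 107 and 58 reads per site. Of 14 oocyte marker genes, 13 had a site in some list, and only Dppa3 had none. Of 14 granulosa and cumulus cell markers, only Amh and Cyp19a1 had a site, and both were in the MII list, at 13.5% of 96 reads and 10.2% of 49 reads. The lists hold called sites alone, from 20 reads, 10% m5C and 5 unconverted reads upward, so a site missing from a list may be unmethylated, below these limits or not covered. Intervals in this text are 95% Wilson intervals for levels, 95% exact Poisson intervals for counts and 95% Clopper-Pearson intervals for shares of sites. They cover counting error only, since reads without molecular identifiers are not independent molecules.

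The RNA sequences around the sites on which the results turn are shown 5′ to 3′, from the GRCm38 genome of RefSeq, with the site and the 4 bases after it in capitals. Each run holds 10 bases before the site and 15 after it. The first set holds sites whose level was higher in the 1-cell embryo than in the GV oocyte.
Timm44, 3′ UTR, chr8:4260041-4260066, minus strand: acaucugauaCAGCUgugaacaagcu
Timm44, codon 166, chr8:4267894-4267919, minus strand: uguccaagagCGGGGagaagcugggc
Timm8a2, codon 61, chr14:122034857-122034882, plus strand: ccgggcggagCUCUGcuuggugaacu
Pdhx, 3′ UTR, chr2:103021428-103021453, minus strand: ggaaugaagaCAGAGgaagaaaaacu
Cox7a2l, 3′ UTR, chr17:83502274-83502299, minus strand: ccucgggacuCAGGCggugucugagc
Atp5b, codon 457, chr10:128089029-128089054, plus strand: gugucccgggCAAGAaagauacagcg

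The second set holds highly methylated sites at which no pair of libraries passed the test, 1 site that was lower in the embryo than at the MII stage and 1 site listed only in oocytes.
Sdhd, 3′ UTR, chr9:50596610-50596635, minus strand: aacauuuaauCAGGAgaugcucucaa
Cox7c, codon 7, chr13:86046642-86046667, minus strand: ccagaguaucCGGAGguucacgaccu
Timm10b, 5′ UTR, chr7:105640321-105640346, plus strand: auccuagcagCAGGUcagagauuugg
Ndufaf3, codon 31, chr9:108566723-108566748, minus strand: gaacccgcguCGGGGacaccggcuuu

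The third set shows members with the Type II motif CUCNA, in which the first C is the site. Type II sites are those of the methyltransferase NSUN6, while sites set by NSUN2, called Type I, lie in G-rich sequence. The other sets vary in this, and the printed sites of Timm44 in the 3′ UTR, Timm8a2 and Atp5b have only 1 G among the 4 bases after the site.
Tomm22, codon 136, chr15:79672259-79672284, plus strand: ggggcucuacCUCCAcuuccuggaaa
Atp5g1, codon 47, chr11:96073665-96073690, minus strand: cagcuccccuCUCCAgguggcccgac
Ndufs3, codon 153, chr2:90898667-90898692, minus strand: cacccauugaCUCUAuagugucugug
Ndufa4l2, codon 36, chr10:127515437-127515462, plus strand: cagugccggaCUCUAcuugcugcgac

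The number of member sites was close at the 2 oocyte stages and much higher in the embryo. There were 56 sites (42.3 to 72.7) in 43 genes at the GV stage, 66 (51 to 84) in 45 genes at the MII stage and 151 (128 to 177) in 65 genes in the 1-cell embryo. The embryo list held 2.29 times as many member sites as the MII list, against 1.21 times over all sites. Members made up 0.352% of all sites (0.266 to 0.457) at the GV stage, 0.319% (0.247 to 0.406) at the MII stage and 0.604% (0.512 to 0.708) in the embryo. When only sites with at least 50 reads were counted, the members went from 60 at the MII stage to 116 in the embryo, while all sites went from 15946 to 14749. The mean number of sites per listed gene was 1.30, 1.47 and 2.32 for members in this order of stages, and 2.60, 3.07 and 3.90 over all genes.

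Of the 179 member sites, 107 (59.8%) were listed only in the embryo, against 41.3% of all sites. Another 35 sites (19.6%) in 27 genes were called at every stage, against 15.3% of all sites. The sites listed at both oocyte stages and not in the embryo numbered 15 (8.38%), against 16.9% of all sites. By gene, 33 members (44%) had a site at every stage, against 53.9% of all genes, and 25 (33.3%) had sites only in the embryo, against 13.6% of all genes. Only Cox15 and Ndufb9 were listed at the GV stage alone (2.67% of members, against 3.65% of all genes), and only Cox7a2, Ndufab1-ps and Ndufs1 at the MII stage alone (4%, against 6.20%). The deepest sites of such genes were that of Ndufb9 at codon 67, with 15.2% of 362 reads at the GV stage, that of Cox7a2 in the 5′ UTR, with 12.5% of 176 reads at the MII stage, and that of Cox5a at codon 59, with 12.0% of 308 reads in the embryo. The 26 bases around the site of Ndufab1-ps are the same as those around codon 14 of Ndufab1, which read 10.5% of 324 at the MII stage. Reads at the pseudogene site may therefore be shared with Ndufab1. The window around the Cox5a site also has a near-identical copy elsewhere in the genome. Since the lists give no coverage for sites that were not called, absence and lack of reads cannot be told apart.

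**Figure D1:**
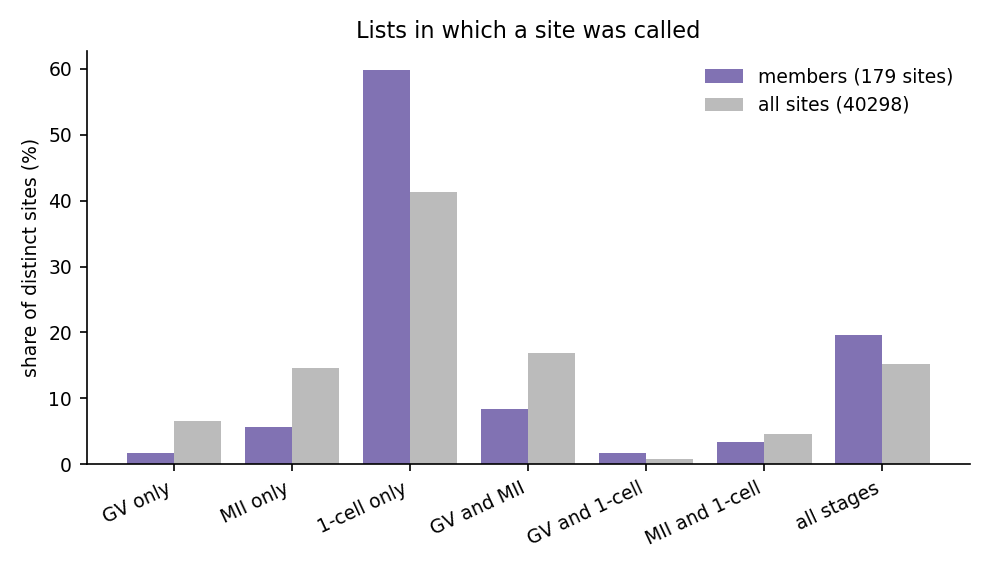
Share of distinct sites (%) by the lists in which they were called, for 179 member sites (purple) and all 40298 sites (grey). The 1-cell only class holds 59.8% of the member sites and 41.3% of all sites.

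Every functional group had more sites in the embryo than at either oocyte stage. Complex I subunits had 19, 22 and 34 sites at the GV, MII and 1-cell stages, ATP synthase genes 8, 7 and 27, and inner membrane translocases 6, 7 and 23. By its symbol alone, Atp5sl (Dmac2) is counted with ATP synthase, with 1, 1 and 3 sites. The pseudogene Ndufab1-ps, with 1 MII site, and Ndufa4l2, with 1 embryo site, are likewise counted with the complex I subunits by symbol. Complex II with its assembly factors had 3, 4 and 17 sites. Complex III had no site at either oocyte stage and 6 sites in 4 genes in the embryo. Complex IV subunits, with 7, 9 and 12 sites, and the complex IV assembly genes, with 5, 4 and 8, increased least among the groups with at least 5 GV sites.

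**Figure D2:**
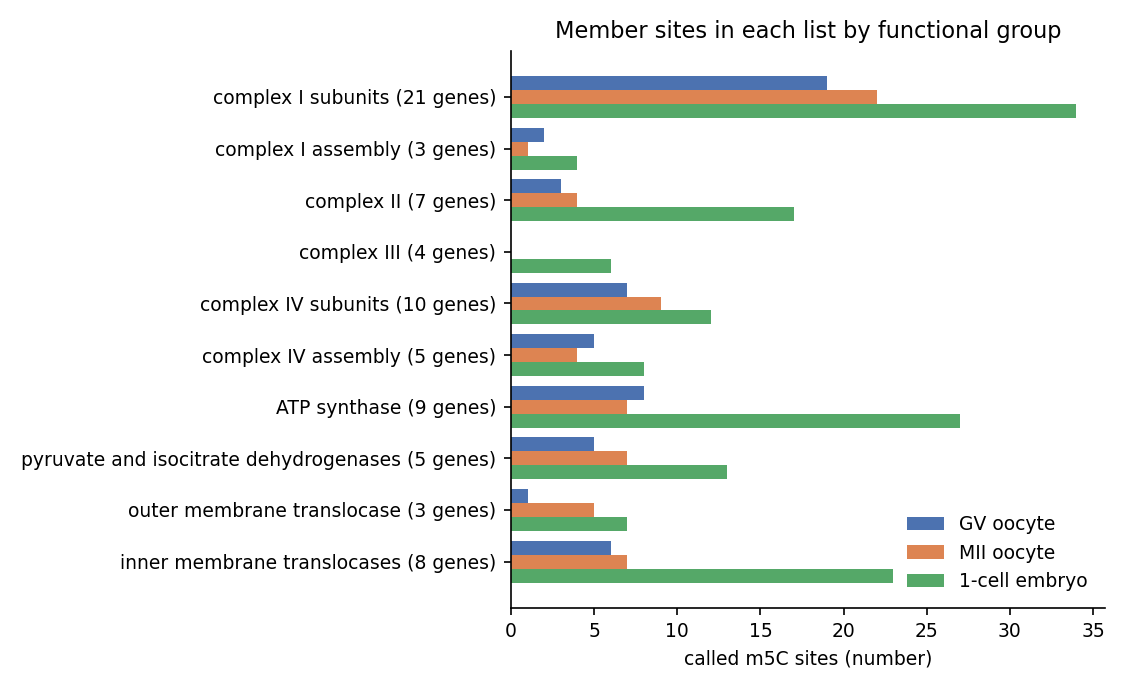
Number of called m5C sites in each functional group (horizontal axis) in the library of each stage, with the number of member genes of the group in brackets. The embryo bar is the longest in every group, and complex III has sites in the embryo alone.

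The median m5C level of the listed member sites was 17.5% (quartiles 13.0 and 34.1) at the GV stage, 16.1% (12.6 and 33.3) at the MII stage and 19.4% (14 and 32.5) in the embryo. The medians over all sites were 19.5%, 19.8% and 23.8%. With at least 50 reads the member medians were 17.1%, 16.1% and 16.7%, and those over all sites 18.3%, 18.6% and 18.2%. Both embryo values thus came closer to those of the oocytes when shallow sites were left out. The shares that follow include shallow sites, and the embryo median coverage was 82 reads for members and 58 over all sites. In the embryo 51% of the member sites were below 20% m5C, against 39.8% of all sites. Sites at 50% or more numbered 6, 9 and 16 in this order of stages, which was 10.6% of the member sites in the embryo and 16.7% of all sites there.

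The change from the GV to the MII oocyte asked how the level moved with meiotic maturation, at the 50 member sites called in both lists. Of these, 5 were higher and none was lower at the MII stage by a two-sided Fisher's exact test with Benjamini-Hochberg adjustment over all 12954 shared sites (adjusted p under 0.05). Over all shared sites 19.6% were called higher and 0.965% lower, so the share of 10.0% among members was below the background. That difference rests on 5 called sites and was not tested. With no adjustment 9 were higher and none lower at p under 0.05, and the chi-square test also called none lower. The 5 sites lay in Timm8a2, Timm44, Timm17a, Pdhb and Cox7a2l, 3 of them genes of the inner membrane translocases. The median difference was 0.91 percentage points (quartiles -2.22 and 4.80) for members and 4.87 (0.46 and 10.1) for all shared sites.

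The step between MII oocyte and 1-cell embryo covers fertilization and the first hours after it. Here 27 of 41 shared member sites were higher (65.9%) and 1 was lower (2.44%) by the same Fisher's exact test, against 51.3% higher and 2.45% lower among the 8015 shared sites. The median difference was 13.5 points (quartiles 3.50 and 24.3) for members and 12.7 (3.38 and 25.5) for all. The share of the members called higher was thus above the background and the share called lower was near it. These shares rest on 41 sites, and their difference from the background was not tested. Member sites were also deeper, with a median of 321 MII and 97 embryo reads, against 240 and 66 over all shared sites. The part of depth in these shares was not tested. The only member site called lower was in Timm10b.

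Over the whole interval between GV oocyte and 1-cell embryo, 22 of 38 shared member sites were higher (57.9%) and none was lower by Fisher's exact test, with none lower at an unadjusted p under 0.05 or by the chi-square test. Among all 6478 shared sites 66.1% were higher and 1.05% lower, so the share called higher among members was below the background. That difference rests on 38 member sites and was not tested. The median difference was 14.3 points (quartiles 5.34 and 27.2) for members and 19.2 (8.02 and 33.2) for all shared sites. The 3 pairs share libraries, so their counts are not independent of each other. Sites can also appear in both lists of a pair only if they passed the level limit in each, which leaves out any site that went from below 10% to above it.

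**Figure D3:**
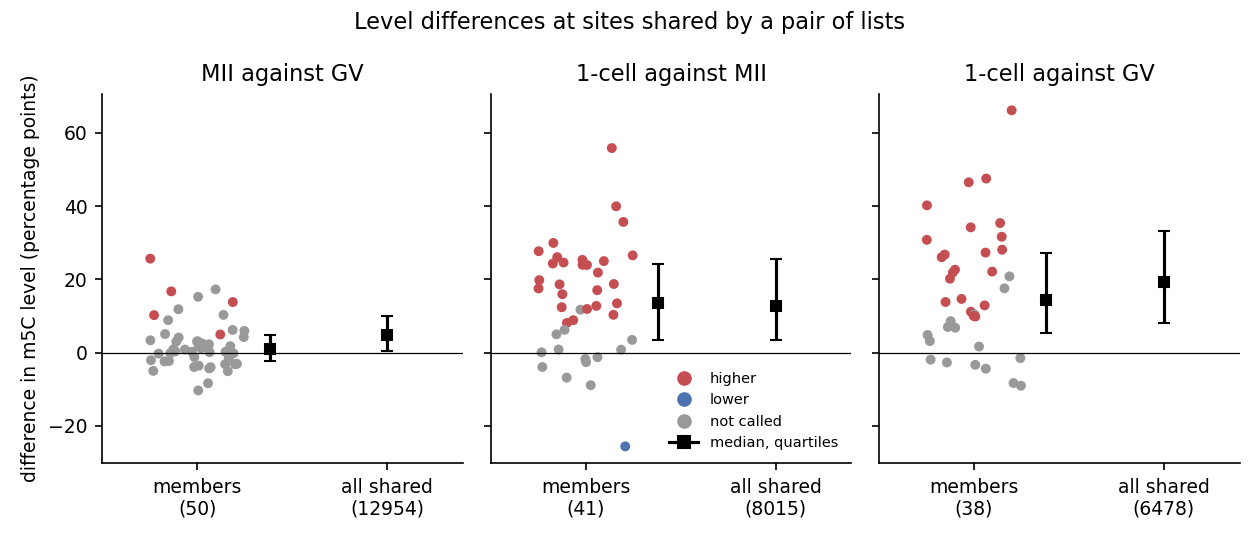
Difference in m5C level (percentage points) at each member site shared by a pair of libraries (points, coloured by the adjusted Fisher call), beside the median and quartiles of members and of all shared sites (black squares and bars). In the first panel the points centre near 0, and in the other panels most lie above it.

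Of the 35 member sites called at every stage, 26 had their highest level in the embryo (74.3%, against 80.3% of all 6145 such sites) and 18 were ordered GV, MII, 1-cell from low to high (51.4%, against 67.4%). The sites called higher in both steps numbered 4 (11.4%, against 16.3% of all such sites): Timm8a2 at codon 61, Timm44 at codon 166, Timm17a at codon 99 and Cox7a2l in the 3′ UTR. At 11 sites (31.4%, against 24.1%) no pair of libraries passed the test.

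**Figure D4:**
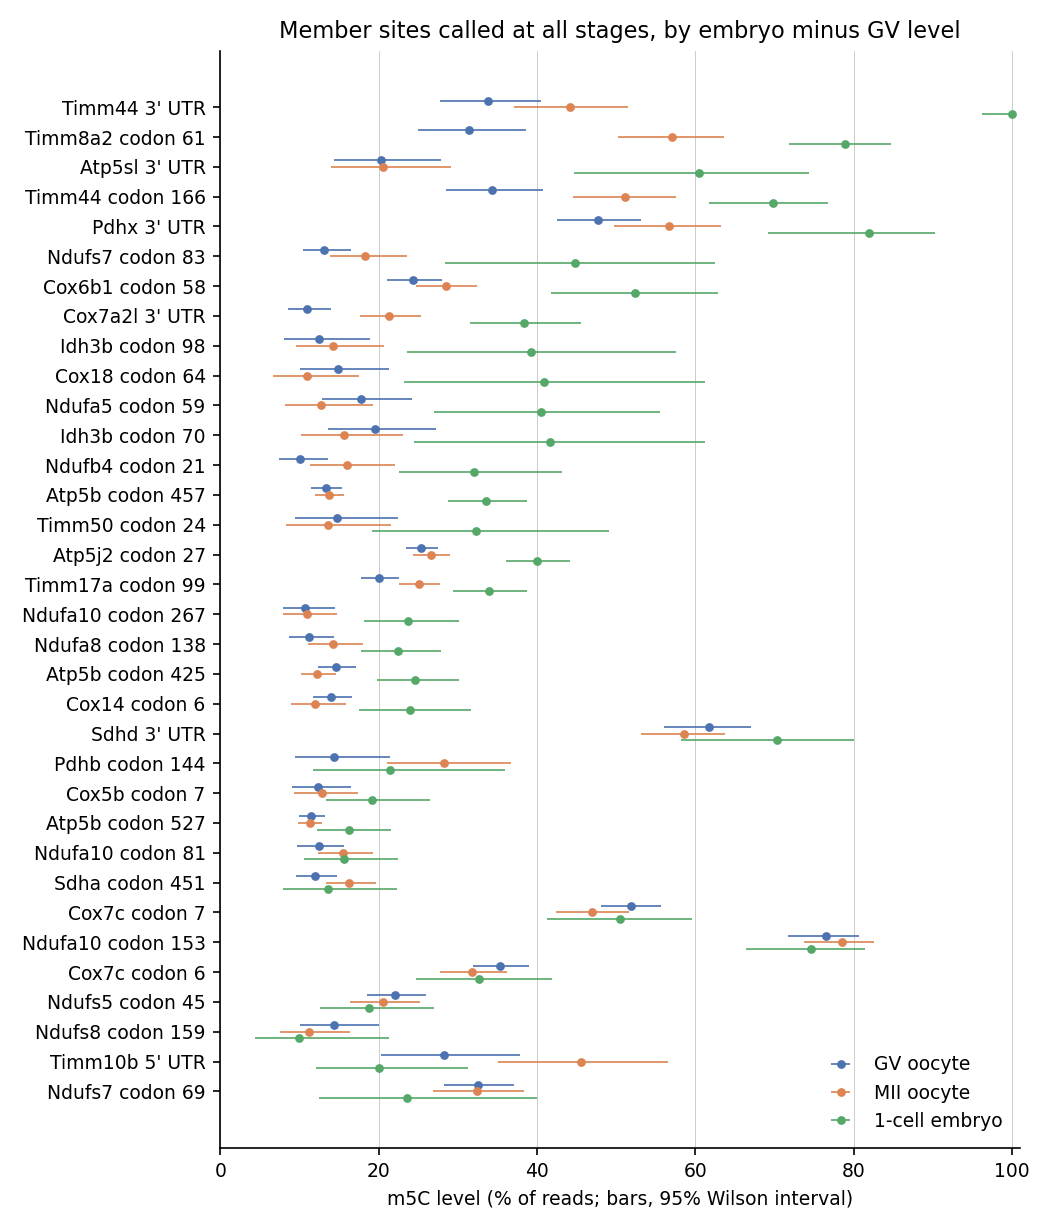
m5C level (% of reads, bars 95% Wilson intervals) at 34 of the 35 member sites called in all libraries, ordered by the embryo level minus the GV level. Timm44 in the 3′ UTR stands at the top, at 33.8%, 44.1% and 100% in the GV, MII and 1-cell libraries, and Ndufs7 at codon 69 at the bottom.

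Among the inner membrane translocases, Timm44, which holds the import Hsp70 at the TIM23 channel, had the site with the greatest rise. Its 3′ UTR site at chr8:4260056, in exon 13 of 13, read 33.8% of 207 reads (27.7 to 40.5) at the GV stage, 44.1% of 179 (37.1 to 51.5) at the MII stage and 100% of 97 (96.2 to 100) in the embryo. All 97 embryo reads were unconverted, and the embryo interval lay far above both oocyte intervals. The embryo exceeded the MII oocyte by 55.9 points (adjusted p = 1.9e-23) and the GV oocyte by 66.2 points (adjusted p = 3.5e-32) by Fisher's exact test, while the step of 10.3 points from GV to MII did not pass (adjusted p = 0.15).

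The coding site of Timm44 at codon 166, chr8:4267909, read 34.4% of 224 reads, 51.1% of 223 and 69.8% of 139 at the GV, MII and 1-cell stages. Each level stood above the one before it, by 16.7 points (adjusted p = 0.0039) and then 18.7 points (adjusted p = 0.0014) in Fisher's exact test. Timm44 had 2 sites at each oocyte stage and 7 in the embryo, where the other 5 read 11.1% to 31.0%.

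Timm8a2, a small chaperone of the intermembrane space, read 31.4% of 172 reads, 57.1% of 205 and 78.9% of 152 at codon 61, chr14:122034867. It had the largest GV to MII rise of any member, 25.7 points (adjusted p = 1.6e-05), followed by 21.9 points to the embryo (adjusted p = 6.4e-05) by Fisher's exact test. Timm17a, a core subunit of the TIM23 complex, read 20.1% of 1121 reads, 25% of 1054 and 33.9% of 395 at codon 99, chr1:135306112. Its rises were small, 4.98 points (adjusted p = 0.031) and 8.88 points (adjusted p = 0.0026) by Fisher's exact test, and the window around this site has an identical copy elsewhere in the genome.

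Timm10b, another small Tim chaperone, was lower in the embryo than at the MII stage. Its 5′ UTR site at chr7:105640331 read 28.3% of 99 reads, 45.6% of 79 and 20.0% of 65 at the GV, MII and 1-cell stages. The embryo was 25.6 points below the MII oocyte (adjusted p = 0.0038 by Fisher's exact test), and the GV and embryo intervals, 20.3 to 37.8 and 12.1 to 31.3, overlapped. A second site 5 nt downstream was listed only in the embryo, at 26.7% of 90 reads. Timm50, the presequence receptor of TIM23, read 14.8% of 115 reads, 13.6% of 103 and 32.4% of 34 at codon 24, of which only the last step passed (adjusted p under 0.05 by Fisher's exact test). Timm13, Timm17b and Timm21 were listed only in the embryo.

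The outer membrane group held Tomm40, the channel of the TOM complex, Tomm22, its central receptor, and Tomm34, a cytosolic co-chaperone that hands preproteins to it. Tomm34 at codon 47, chr2:164066656, was not listed at the GV stage and read 11.1% of 262 reads at the MII stage and 35.4% of 144 in the embryo, a rise of 24.4 points (adjusted p = 7.4e-08 by Fisher's exact test). Tomm40 at codon 295, chr7:19702911, read 14.3% of 370 reads at the MII stage and 15.2% of 99 in the embryo, a difference of 0.83 points (adjusted p = 0.92 by Fisher's exact test). Tomm22 had 1 site at the MII stage, in the 3′ UTR at chr15:79672708 with 12.2% of 131 reads, and 3 other sites in the embryo.

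Complex I subunits formed the largest group, with 44 distinct sites in 21 genes, the pseudogene Ndufab1-ps included. Ndufs8, an iron-sulphur subunit, had adjacent sites of which only 1 passed a test. The first, chr19:3909186, read 14.3% of 196 reads at the MII stage and 50% of 50 in the embryo (adjusted p = 2.0e-06 by Fisher's exact test), while the next, chr19:3909185, read 14.4% of 188, 11.2% of 196 and 10.0% of 50 from GV to embryo, and no pair passed.

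Ndufa10, an accessory subunit, had 3 sites at every stage, and only 1 of them passed a test. Its codon 153 site, chr1:92469865, read 76.5% of 349 reads (71.8 to 80.7), 78.5% of 335 (73.8 to 82.6) and 74.6% of 126 (66.4 to 81.4), and no pair passed. Its codon 267 site, chr1:92462294, read 10.8% of 353, 10.9% of 321 and 23.7% of 190, and the last step of 12.8 points passed (adjusted p = 7.1e-04 by Fisher's exact test). Its codon 81 site, chr1:92470820, read 12.4% of 475, 15.5% of 413 and 15.6% of 141, with intervals that overlapped throughout. Ndufa8 at codon 138, chr2:36036611, rose more evenly, from 11.2% of 464 through 14.3% of 386 to 22.4% of 259, and only the differences with the embryo passed.

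Ndufa2 was the deepest complex I gene of the oocytes and was absent from the embryo list. Its 3 sites read 34.1% of 1289 reads, 14.3% of 252 and 11.8% of 910 at the GV stage, and 37.2% of 848, 16.8% of 161 and 12.0% of 574 at the MII stage. No GV to MII difference passed at these sites. Ndufaf3, an assembly factor of complex I, also had a site that the embryo list lacked, with 61.3% of 142 reads and 62.1% of 103 at codon 31 in the oocytes. In the embryo it had another site, at codon 75, with 16.2% of 68 reads. Ndufaf8, also an assembly factor, was listed only in the embryo, with 18.9% of 74 reads at codon 81.

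Complex II, succinate dehydrogenase, was represented by its 4 subunits and by the assembly factors Sdhaf1, Sdhaf2 and Sdhaf4. The membrane anchor Sdhd had the highest level, 61.7% of 295 reads (56.0 to 67.1), 58.6% of 333 (53.2 to 63.7) and 70.3% of 64 (58.2 to 80.1) at its 3′ UTR site chr9:50596625, and the 3 intervals overlapped. The embryo list added 5 Sdhd sites, from 13.1% of 122 reads to 27.1% of 85. The flavoprotein Sdha read 12.0% of 611, 16.2% of 524 and 13.6% of 88 at codon 451, with no pair past the test, and had 3 further sites in the embryo of 13.5% to 23.9%.

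The iron-sulphur subunit Sdhb differed between its sites. Codon 261, chr4:140979035, read 36.5% of 307 reads and 36.2% of 149 in the oocytes and was not listed in the embryo. Codon 229, chr4:140977415, read 15.8% of 171 at the MII stage and 33.3% of 63 in the embryo, a difference of 17.5 points (adjusted p = 0.013 by Fisher's exact test). Sdhc, the other membrane anchor, had 2 sites in the 3′ UTR, both only in the embryo, at 15.3% of 85 reads and 15.5% of 58. The assembly factors had embryo sites alone, from 10.4% of 144 reads in Sdhaf4 to 38.7% of 31 in Sdhaf1, with 12.5% of 56 and 10.5% of 76 in Sdhaf2.

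In complex III, the deepest embryo sites were in Uqcrh, the hinge protein, at 10.8% of 214 reads, in Uqcrfs1, the Rieske iron-sulphur protein, at 10.7% of 112 and in Uqcrq, a small subunit, at 21.7% of 92 in the 5′ UTR. Uqcrc2, a core protein, had the highest level of the group, 33.3% of 54 reads at codon 20. Uqcrb, Uqcrc1, Uqcr10 and Uqcr11 had no site in any list.

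Among the complex IV genes, Cox7a2l, which promotes the joining of complexes III and IV into supercomplexes, had a level that differed at each step. Its 3′ UTR site chr17:83502289 read 11.0% of 527 reads (8.6 to 14), 21.3% of 442 (17.7 to 25.3) and 38.3% of 180 (31.5 to 45.6), and none of the 3 intervals overlapped. The steps were 10.3 points (adjusted p = 2.2e-04) and 17.1 points (adjusted p = 8.5e-05) by Fisher's exact test. A second 3′ UTR site close by read 10.8% of 417 at the MII stage and 21.1% of 213 in the embryo.

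Cox7c, a small subunit, carried adjacent sites at codons 6 and 7 with nearly the same levels at each stage. Codon 7, chr13:86046657, read 51.9% of 653 reads (48.1 to 55.7), 47.0% of 443 (42.3 to 51.6) and 50.5% of 111 (41.3 to 59.6), and codon 6 read 35.4% of 681, 31.8% of 471 and 32.7% of 110. No pair passed at either site, and reads over adjacent sites are largely the same reads. The window around them has 3 near-identical copies elsewhere in the genome, and Cox7c had the highest unconverted background of the members, as given below. Cox5b at codon 7, chr1:36691607, read 12.3% of 301, 12.9% of 264 and 19.1% of 136, and no pair passed.

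The assembly genes of complex IV were lower. Cox14 read 14% of 770 reads, 12.0% of 334 and 23.9% of 138 at codon 6, chr15:99727668, and the embryo exceeded the MII oocyte by 11.9 points (adjusted p = 0.0048 by Fisher's exact test). Cox18, which inserts a subunit into the inner membrane, read 14.8% of 155, 10.9% of 128 and 40.9% of 22 at codon 64, chr5:90223749, the last with an interval of 23.3 to 61.3. Cox10, which makes haem O, had 5 embryo sites of 13.2% to 16.5% that were absent from the oocyte lists, of which codon 288 was the deepest with 164 reads.

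ATP synthase held the deepest sites of the members. Atp5j2, subunit f of the membrane part, read 25.4% of 1764 reads (23.4 to 27.5), 26.6% of 1361 (24.3 to 29.0) and 40.1% of 554 (36.1 to 44.2) at codon 27, chr5:145187168. The oocytes overlapped and the embryo was 13.5 points above the MII oocyte (adjusted p = 8.7e-08 by Fisher's exact test). Atp5b, the catalytic beta subunit, had 3 sites in each oocyte list and 8 in the embryo, the most of any member. Its codon 457 site, chr10:128089039, read 13.3% of 1140, 13.7% of 1313 and 33.5% of 340, and the last step of 19.8 points passed (adjusted p = 3.9e-14 by Fisher's exact test).

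The codon 425 site of Atp5b, chr10:128088519, read 14.6% of 809 reads, 12.2% of 827 and 24.6% of 268, and the last step of 12.4 points passed (adjusted p = 1.6e-05 by Fisher's exact test). The codon 527 site read 11.5% of 1490, 11.3% of 1690 and 16.3% of 239, and no pair passed. The embryo list added 5 Atp5b sites, of which codon 89 was the highest with 35.0% of 266 reads. Atp5a1, the alpha subunit, had 5 sites in the embryo, from 11.0% of 100 reads to 48.5% of 103, and none in the oocytes. The genes Atp5g1, Atp5g2 and Atp5g3 encode the same mature subunit c, and Atp5g3 alone had an oocyte site, with 11.0% of 392 reads at the GV stage.

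Of the pyruvate and isocitrate dehydrogenase genes, Pdhx, which binds the E3 enzyme to the pyruvate dehydrogenase core, had the highest level. Its 3′ UTR site chr2:103021443, in exon 11 of 11, read 47.8% of 337 reads (42.5 to 53.1), 56.7% of 203 (49.8 to 63.3) and 82.0% of 50 (69.2 to 90.2). The embryo exceeded the MII oocyte by 25.3 points (adjusted p = 0.0028 by Fisher's exact test). A second Pdhx site, also in the 3′ UTR, was listed in the embryo alone with 13.6% of 59 reads.

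Pdhb, the beta subunit of the pyruvate-decarboxylating enzyme, had its highest value at the MII stage at codon 144, chr14:8170318. It read 14.4% of 132 reads, 28.2% of 124 and 21.4% of 42, and the first step of 13.8 points passed (adjusted p = 0.044 by Fisher's exact test), while the return of 6.80 points did not (adjusted p = 0.53). Its other 4 sites were all in the embryo list alone, from 10.1% of 119 reads to 24.3% of 37. Pdha1, the alpha subunit, had 2 MII sites in the 3′ UTR, with 13.9% of 36 and 17.2% of 29 reads, and 3 embryo sites in the coding sequence, with 15.2% of 66, 15.4% of 65 and 46.9% of 32.

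Idh3b, a non-catalytic subunit of the NAD-dependent isocitrate dehydrogenase, had 3 sites in each oocyte list. Codon 98, chr2:130283751, read 12.5% of 144 reads, 14.3% of 154 and 39.3% of 28, and codon 70, chr2:130283941, read 19.5% of 128, 15.6% of 122 and 41.7% of 24. The last step passed at both, by 25 points (adjusted p = 0.013) and 26.1 points (adjusted p = 0.019) in Fisher's exact test, on few embryo reads. Codon 304 read 48.3% of 89 and 38% of 50 in the oocytes and was not listed in the embryo. The catalytic subunit Idh3a had 1 site, in the embryo, with 19.4% of 36 reads. Idh1, Idh2 and Idh3g had no site in any list.

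Coverage at shared sites fell toward the embryo for members as for all sites. The median ratio of MII to GV coverage was 0.861 (quartiles 0.681 and 0.987) for members and 0.867 for all shared sites. The median ratio of embryo to MII coverage was 0.330 (0.234 and 0.413) for members and 0.318 for all, and that of embryo to GV coverage was 0.276 (0.172 and 0.350) and 0.280. The files hold no normalization for depth, so less RNA per cell, shallower sequencing and the loss of reads in filtering cannot be told apart. The members were covered more deeply than the average site, with a median of 286, 181 and 82 reads at listed sites in this order of stages, against 121, 107 and 58 over all.

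**Figure D5:**
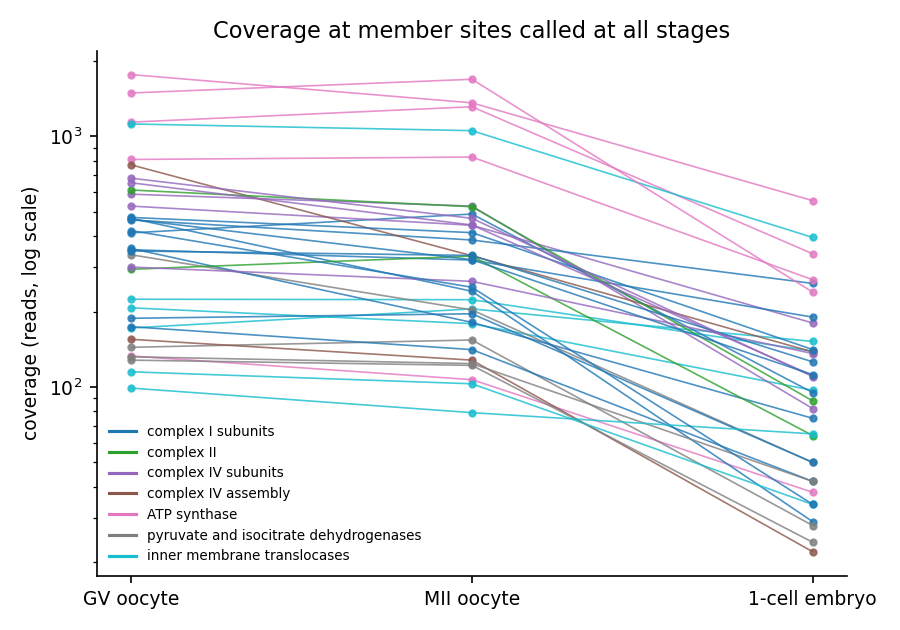
Coverage (reads, log scale) at the 35 member sites called in all libraries, with lines joining the values of 1 site and coloured by functional group. At most sites the GV and MII values are close and the embryo value is lower, and the highest lines are those of ATP synthase and of Timm17a.

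The embryo-only sites were weaker than the embryo sites also found in oocytes. Their median level was 16.2% and that of the others 34.2%, against 19.4% and 39.1% over all sites. Of the 107, 66 lay in genes that had an oocyte site (61.7%, against 88.4% over all sites), and 15 (14%, against 21.4% over all sites) lay within 100 nt of an oocyte site with at least 50 reads. Timm44 had 3 such sites, at 37, 96 and 98 nt from its strongest 3′ UTR site, with 23.5% of 85, 17.4% of 121 and 16.5% of 121 reads, beside oocyte coverage of 207 and 179 reads at the neighbour. Coverage of the neighbour does not give the oocyte level at these cytosines.

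Most member sites lay in coding sequence. Of the cytosines in the members' transcripts, 43.35% were in the CDS, 43.73% in the 3′ UTR and 12.92% in the 5′ UTR. Of the 179 sites, 139 (77.7%, 70.8 to 83.5) were in the CDS, 29 (16.2%) in the 3′ UTR and 10 (5.59%, 2.71 to 10.0) in the 5′ UTR, against 70.1%, 17.0% and 10.8% of all sites. The 5′ UTR share of the members was 8.93% at the GV stage, 12.1% at the MII stage and 1.99% in the embryo (0.41 to 5.70), while over all sites it was 11.2%, 11.3% and 10.3%. The 3 embryo sites in a 5′ UTR were those of Uqcrq and the pair in Timm10b. Atp5j2 in the 5′ UTR read 35.7% of 56 reads and 51% of 51, and Cox8a, a complex IV subunit, 35.9% of 131 and 47.7% of 178, at the GV and MII stages, and neither site was in the embryo list.

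Of the 139 coding sites, 35 (25.2%) fell in the first 40 codons, where targeting presequences for import lie in many of these proteins. The share was 8.96% over all coding sites, but member proteins are short, and 21.1% of the coding cytosines of the members' transcripts lay in these codons. Proline codons held 21 sites, arginine codons 19, glutamine and threonine codons 17 each and alanine codons 16. Threonine codons held 12.2% of the member sites and 7.08% of all coding sites. Codon positions 1, 2 and 3 held 52, 43 and 44 sites.

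All 7 Type II members were embryo-only sites, in Atp5a1 (2 sites), Atp5g1, Ndufa4l2, Ndufab1, Ndufs3 and Tomm22. The windows around those of Atp5g1, Ndufab1, Ndufs3 and Tomm22 have near-identical copies elsewhere in the genome. All 7 together are counted here. They made up 4.64% of the embryo's member sites (1.88 to 9.32), against 3.44% of all embryo sites. In the oocytes none of 56 (upper bound 6.38%) and none of 66 sites (upper bound 5.44%) was Type II, against 5.91% and 5.03% of all sites, so these counts cannot show a difference. The levels ran from 11.0% of 100 reads in Atp5a1 to 77.8% of 27 in Ndufa4l2. The other members had a mean of 1.95 G among the 4 bases after the site (SD 0.913), against 2.07 (SD 0.902) over all sites without the motif, with G at the second of these bases in 64.5% and 63.9%. In folds predicted by RNAfold at 37 °C, over 50 nt on each side, for 176 member sites, the site was paired in 58.0% and the base after it in 55.1%, against 59.1% and 64.3% of all folded sites.

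The authors called sites against a conversion rate for each gene, which the deposited p-values allow to be recovered. The median unconverted background of member genes was 0.369%, 0.468% and 0.321% at the GV, MII and 1-cell stages, against 0.264%, 0.367% and 0.354% over all genes. The highest member value was that of Cox7c at every stage, 1.71%, 2.19% and 2.11%. Timm44 stood at 0.301%, 0.413% and 0.872%. All these rates were well below the 10% limit of the lists.

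Many genes of this set have processed copies in the genome. Of 176 windows reaching 50 nt to each side of a member site, 32 in 19 genes matched another place over at least 90 bases with at least 95% identity. They included Cox7c, Cox5a, Cox5b, Ndufb4, Timm17a at codon 99, Atp5j2 at codon 27, Atp5b at codon 457 and Pdhb at codon 144. Timm17b, the Type II site of Tomm22 and all sites of Atp5g1, Ndufab1 and Ndufs3 were also among them. Reads at these sites may be shared with the copies. Without these sites the lists held 45, 54 and 121 member sites, and the calls higher were 3, 22 and 18 in the order MII against GV, 1-cell against MII and 1-cell against GV. The sites described for Timm44, Timm8a2, Pdhx, Cox7a2l, Sdhd and Ndufa10 had no such copy.

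Other genes of the pathway were taken from lists of their own. Of 14 further enzymes of the tricarboxylic acid cycle and pyruvate metabolism, 13 had sites, numbering 24, 31 and 54 at the GV, MII and 1-cell stages, and 11 of 17 shared sites were higher in the embryo than in the MII oocyte. These counts include Aco1 and Mdh1, which encode cytosolic enzymes. The deepest site was in Cs, citrate synthase, at 10.6% of 1434 reads in the MII oocyte and 15.8% of 360 in the embryo. Of 30 other respiratory chain and assembly genes, 17 had sites, numbering 27, 29 and 20, and 1 of 8 shared sites was higher in the embryo than in the MII oocyte. The deepest, in Uqcc2, an assembly factor of complex III, read 32.1% of 813, 36.0% of 367 and 80.6% of 67.

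Of 21 other import genes, 15 had sites, numbering 14, 18 and 31 across the stages. Hspa9, the matrix Hsp70 that works with Timm44, had the deepest, at 10.7% of 675, 10.7% of 419 and 36.8% of 38. Of 14 regulators of mitochondrial biogenesis, 8 had sites, numbering 17, 21 and 17. The deepest was that of Nrf1, a transcription factor for respiratory genes, which read 47.6% of 1036, 59.9% of 1021 and 42.5% of 106, higher at the MII than at the GV stage (adjusted p = 7.6e-07) and lower in the embryo than at the MII stage (adjusted p = 0.0017) by Fisher's exact test. Another Nrf1 site of nearly the same depth, chr6:30102192, read 37.5% of 1012, 48.7% of 941 and 80% of 70, and was higher in the embryo than at the MII stage (adjusted p = 2.0e-06 by Fisher's exact test). From the mitochondrial genome only the small ribosomal RNA was listed, with 2 sites in the embryo library, at 69.1% of 9587 reads and 12.3% of 8745, and no mitochondrial mRNA was listed.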

How the data were processed

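As the study's methods describe, the authors trimmed reads with cutadapt 1.13 and Trimmomatic 0.36, mapped them with HISAT2 to a C-to-T genome and, where that failed, with Bowtie2 2.2.9 to a C-to-T transcriptome, versions as in the submitters' processing notes, and called sites by filters on coverage, level, unconverted reads and conversion of the gene. The build was GRCm38. The coverage is deposited as a count of C and T reads per site, without normalization. The m5C level is deposited by the authors as a fraction and is given here in percent. The deposited p-value comes from their one-sided binomial test and served here only to recover the conversion rate of each gene. The methods name RNA depleted of ribosomal RNA and a higher hCG dose for MII oocytes, while the labels name polyadenylated RNA and the doses given here. The 1-cell embryo list is not the one in the study's supplement.

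Unconverted reads were taken as level times coverage, which was whole to within 2.9e-05 reads. All 15900, 20686 and 24985 sites on chromosomes were C in GRCm38. Regions, exons and codons came from GENCODE M21, folds from RNAfold 2.7.2 and copies from blastn 2.17.0 (at least 90 bases at 95% identity). A site was counted as CDS where any transcript of its gene placed it there, which favours the CDS. For each pair of libraries a two-sided Fisher's exact test (scipy 1.17.1) was run at every site in both lists, with Benjamini-Hochberg adjustment over all of them and a threshold of 0.05. The calling step was tested on simulated independent reads and the rate step on simulated p-values. The simulated reads cannot show how the test behaves where reads are not independent molecules. The alternatives were a coverage of at least 50 reads, a level of at least 20%, 20 reads drawn per site (seed 7), reads divided by 5, a chi-square test, CUCCA as the only Type II motif, coverage summed by gene and, chosen after seeing the data, leaving out sites with near-identical copies.

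The members and lists were chosen with earlier results of these data known. Named sites are those of the genes with the most sites, the 3 deepest of each functional group, the 5 largest rises and 3 largest falls of each pair with 50 reads in both libraries, the 8 deepest at 50% or more, the deepest site of the genes found in 1 list alone, and complex II and the dehydrogenases in full. The other sites given (of Timm50, Uqcrc2, Atp5a1, Atp5g3, Ndufa4l2, Cox8a, Ndufs8, Cox7c at codon 6 and the second sites of Cox7a2l and Nrf1, among others) were named after their values were seen. Mia2 was removed from the list of other import genes after the values were seen, since it is not an import factor. The sites of 1 member gene are kept in all counts but are not reported here by name.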

Additional observations from a re-analysis of the deposited data

How the results depend on the processing

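Of 88 values of the comparisons under an alternative, 69 kept their direction and size, and of 308 values at single named sites 240 kept their call, 65 lost it and 3 reversed, all losses and reversals with 20 drawn reads or with reads divided by 5, so fewer reads by construction. A level of at least 20% left 26 sites in 23 genes at the GV stage, 26 in 23 at the MII stage and 74 sites in the embryo, with medians of 34.9%, 41.1% and 33.0%. The embryo median was 16.7% with at least 50 reads and 25% with 20 drawn reads. With 20 drawn reads 0, 2 and 6 member sites were called higher in MII against GV, 1-cell against MII and 1-cell against GV by Fisher's exact test (2, 9 and 8 unadjusted), and with reads divided by 5 the calls were also 0, 2 and 6 (0, 9 and 12 unadjusted). The site called lower in 1-cell against MII gave 0 calls in both settings. The sites reversed with 20 drawn reads were Timm44 at codon 166 in MII against GV (-10 points), Sdhb at codon 229 in 1-cell against MII (-5 points) and Atp5j2 at codon 27 in 1-cell against GV (-25 points), none past the threshold. Without sites that have near-identical copies, 3 sites were called higher in MII against GV, the lost ones being those of Timm17a and Pdhb. Leaving out Idh1 changed nothing, since it had no site, so its 3 values among the 69 could not have changed. Counts of 0 that stayed at 0 were also among the 69. The 240 include sites that were not called at first and stayed uncalled, which fewer reads make likely. Of the 240, 79 came from the chi-square test and 71 from the limit of 50 reads, both on the same reads. With reads divided by 5, 46 values kept their call status and 33 lost their call. With 20 drawn reads, 44 kept it, 32 lost it and 3 reversed. With 1 library per stage no library could be left out, and depth limits the embryo most, where the median member site had 82 reads. A site just under 10% in one library and just over it in another is listed in only 1 of them, so the counts of sites by stage depend on that limit as well as on the levels.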

Other observations

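Some respiratory sites, in the 5′ UTR and elsewhere, were listed in oocytes and missing from the embryo list. Ndufc2, a complex I subunit, read 16% of 163 reads and 16.9% of 142 at its 5′ UTR site at the GV and MII stages, Cox8a had a second, adjacent 5′ UTR site at the MII stage alone with 11.6% of 181, and Ndufv2 one with 11.5% of 52. Ndufs8 at codon 205 read 59.4% of 69 and 55.1% of 107 in the oocytes and was also not in the embryo list.

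Some sites had high embryo levels on few reads. Atp5sl in the 3′ UTR read 20.3% of 133 reads, 20.6% of 107 and 60.5% of 38, Ndufv2 at codon 237 read 17.1% of 111 at the GV stage and 63.6% of 33 in the embryo, and Ndufs3 at codon 114 and Timm17b at codon 141 were listed in the embryo alone, at 75% of 20 and 60.0% of 30. Cox6b1, a complex IV subunit, read 24.3% of 588, 28.5% of 527 and 52.4% of 82 at codon 58. The windows around the sites of Ndufs3 and Timm17b have near-identical copies elsewhere in the genome, so their reads may be shared with the copies. All sites of this paragraph were named after their values were seen.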
